A study of Mus musculus with 6 samples.

Results

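The complement system is a cascade of plasma and cell-bound proteins that was followed here through 32 genes of its components, regulators and receptors, chosen by symbol from the 22027 protein-coding genes of the deposited table. All 32 symbols were found, each with 1 gene identifier, and 31 averaged 10 or more across the 6 libraries, the minimum for testing. The remaining gene, Cfd, was at 0 in every library. RNA-seq was made from cells labelled as liver lymphatic endothelial cells, sorted from mice that report interleukin 7 expression by green fluorescence. The injured group held 3 libraries from day 3 after ischemia and reperfusion (I/R), in which blood supply is cut and then restored, and the control group held 3 libraries from sham surgery. Both groups carried the reporter. For all 6 libraries the column names say GFP plus, the only detail given of the sorting gate. For strain, sex, age, the sham time point, the sorting gate and the animals behind each library, nothing is given in the sources used here, so that p-values measure the spread between these libraries only.

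Complement is started in 3 ways. In the classical pathway C1q binds antibody complexes and dying cells, in the lectin pathway mannose-binding lectins bind sugars, and the alternative pathway runs on spontaneous activation and amplifies the others. All of them cut C3 and then C5, whose small fragments attract and activate leukocytes through receptors while the large fragments coat targets and assemble the membrane attack complex. In the liver, hepatocytes secrete most plasma components, and Kupffer cells, the resident macrophages, make C1q and properdin and carry the receptor encoded by Vsig4.

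Values are the authors' normalised counts, that is, gene counts divided by 1 factor per library. Totals of the whole counts recovered from them ranged from 6297308 to 17086746 per library. Markers of several cell types were present in all 6 libraries. Those of the lymphatic endothelium had Mmrn1 and Ccl21a at ranks 94 and 205 by mean value and Prox1 at 1459. The Kupffer cell genes Cd5l, Clec4f and Csf1r stood at ranks 5, 6 and 20, the hepatocyte genes Alb and Apoa1 at ranks 15 and 229, and the endothelial gene Pecam1 at rank 1340. Of the 5 T cell markers Cd3e was at 0 throughout, and only Cd4, at 162.5 to 314.5, averaged 10 or more. Of the 4 B cell markers Cd79a did not exceed 3.33, and only Cd79b, at 38.0 to 96.8, averaged 10 or more. The 8 lymphatic endothelial markers, of which none was at 0, had a median log2 fold change of 0.95 and every value was positive. At an unadjusted p under 0.05 by limma there were 4 higher, against 2.96% of all tested genes, and 0 passed the adjusted threshold. Their summed value was 44734, 27723 and 43811 in I/R libraries, against 23855, 30646 and 8605 in sham libraries, so that sham library 3 was far below the others and the groups overlapped. The part of this difference in the values of the complement genes was not tested. In such mixed libraries fewer cells of a type and less RNA per cell cannot be told apart.

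Between I/R day 3 and sham libraries, 0 of the 31 tested complement genes passed the limma threshold of an adjusted p under 0.05, against 0.0298% of all tested genes, and the adjusted p of the 31 genes ran from 0.985 to 0.999. With edgeR and with DESeq2 on the recovered counts the number was also 0, against 0.00744% and 0.35% of all genes. At an unadjusted p under 0.05, limma had 4 members lower in I/R, namely Cfb, C2, C4b and C5ar1, against 1.48% of all genes, and 1 higher, C9, against 2.96%. Of the 31 log2 fold changes 20 were negative and 11 positive, with a median of -0.11, where all 13434 tested genes had a median of 0.02 and 47.9% negative values. The groups did not overlap for 3 members lower in I/R, against 4.48% of all genes, and for 1 member higher in I/R, against 5.11%.

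**Figure D1:**
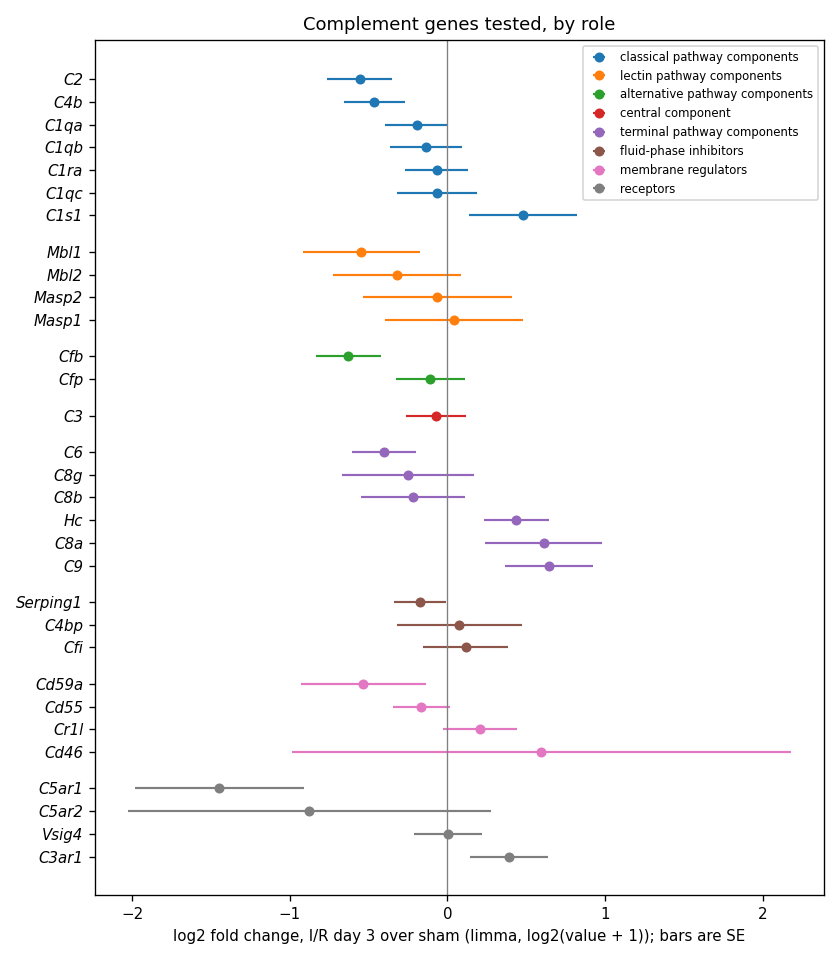
Log2 fold change of I/R day 3 over sham for the 31 tested complement genes, grouped and coloured by role, with points for the limma estimate on log2(value + 1) and bars for 1 standard error. C5ar1 at -1.45 lies farthest to the left and C9 at 0.64 farthest to the right.

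The 3 members that were lower in every I/R library than in any sham library were Cfb, C2 and C4b, which encode the serine proteases and the thioester protein from which the C3 and C5 convertases are built. Cfb, the catalytic subunit of the alternative convertase, had normalised counts of 2819, 3303 and 2586 in I/R libraries 1, 2 and 3, against 3375, 5382 and 4908 in sham libraries 1, 2 and 3. The gap between the groups was narrow, because sham library 1 lay just above I/R library 2. Its means were 2903 ± 366 in I/R and 4555 ± 1049 in sham (SD, n = 3 each), with a log2 fold change of -0.63 (95% interval -1.09 to -0.17, SE 0.21, adjusted p = 0.985 by limma).

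C2, the protease that forms the classical and lectin convertase together with C4, had normalised counts of 785.1, 1050 and 1169 in I/R libraries 1, 2 and 3, against 1199, 1586 and 1611 in the sham libraries. Here too sham library 1 was the lowest of its group and nearly met the highest I/R library. The log2 fold change was -0.56 (95% interval -1.01 to -0.10, SE 0.21, adjusted p = 0.985 by limma). C4b, which encodes the C4 protein whose fragment binds covalently to targets, had normalised counts of 6547, 7277 and 9182 in I/R libraries 1, 2 and 3, against 10889, 11388 and 9236 in the sham libraries. I/R library 3 and sham library 3 were almost equal, and the other libraries were well apart. C4b had a log2 fold change of -0.46 (95% interval -0.89 to -0.04, SE 0.19, adjusted p = 0.985 by limma). In every alternative run the fold change of these 3 genes stayed negative, between -0.83 and -0.49 for Cfb, between -0.69 and -0.39 for C2 and between -0.60 and -0.33 for C4b. The lowest adjusted p over the alternatives was 0.139 for Cfb, 0.38 for C2 and 0.645 for C4b.

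The same 3 genes lie within 169.89 kb of chromosome 17 in the class III region of the major histocompatibility complex, all on the minus strand of GRCm38. C4b (ENSMUSG00000073418) spans 34728380 to 34743882, Cfb (ENSMUSG00000090231) 34856374 to 34862518 and C2 (ENSMUSG00000024371) 34862604 to 34898265, so that 85 bases separate Cfb from C2. Of the other 5 tested genes in this interval, all had negative fold changes and 0 had an unadjusted p under 0.05. Stk19, encoding a nuclear protein, had a log2 fold change of -0.17 (SE 0.36), Skiv2l, encoding an RNA helicase of the exosome pathway, -0.28 (SE 0.18), and Nelfe, encoding a subunit of a transcription elongation factor, -0.16 (SE 0.24). Dxo, encoding an enzyme that removes aberrant RNA caps, had -0.69 (SE 0.33), and Zbtb12, a zinc finger gene inside C2 on the other strand, -0.82 (SE 0.80) at a mean of 24.9. Whether counting used strand is not stated, and Cfb ends 1 base from Nelfe while the annotated gene Gm20547 overlaps both Cfb and C2, so reads at these overlaps could be assigned to either gene. C4b has a near-identical copy, C4a, which was not among the 10 genes of the deposited table placed in this interval and was not analysed. The values of C4b are uncertain for that reason.

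**Figure D2:**
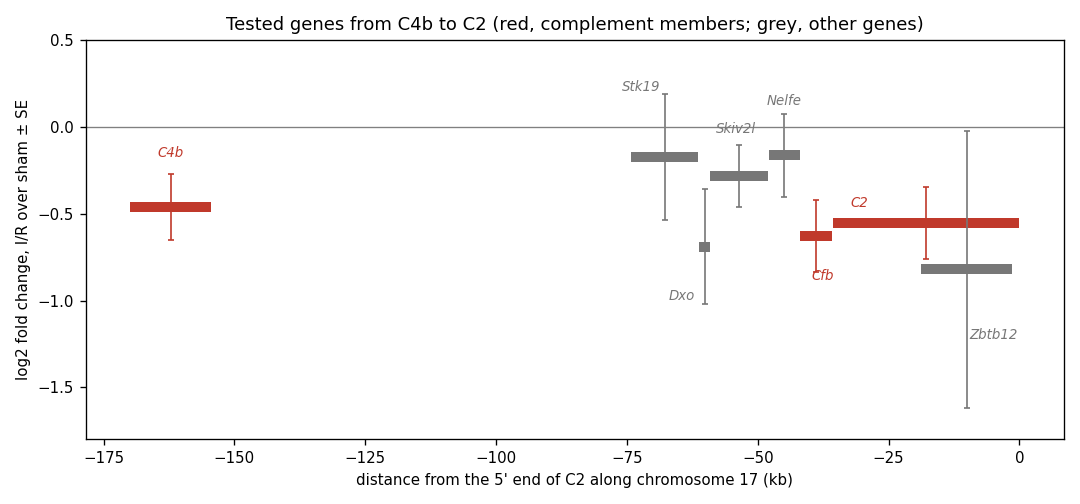
Map of the tested genes from C4b to C2, with the distance from the 5′ end of C2 in kb on the x axis and the log2 fold change of I/R over sham on the y axis. Bar length is the gene body, whiskers are 1 standard error, red marks complement members and grey other genes, and all 8 genes lie below 0.

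Markers of Kupffer cells and hepatocytes, cells known to make complement proteins, were examined in the same libraries. Of the 11 Kupffer cell markers 10 had a negative fold change and 0 passed, with a median of -0.24, and their summed value ran from 115676 to 198445 in I/R and from 169852 to 204899 in sham libraries, with none at 0 in all libraries. The 14 hepatocyte markers summed to 63864 to 86653 in I/R and 56321 to 93912 in sham libraries, with a median log2 fold change of 0.12. The part of these cells in the values of Cfb, C2 and C4b was not tested.

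C1q, the recognition protein of the classical pathway, is assembled from 3 chains whose genes lie next to each other within 18.675 kb of chromosome 4 on the minus strand. C1qb spans 136880129 to 136886187, C1qc 136889804 to 136893065 and C1qa 136895917 to 136898803 in GRCm38. Per kb of exon length, C1qb, C1qa and C1qc ranked 8, 15 and 25 among all genes of the table, with mean levels of 23792, 17394 and 11989 per kb. No other complement member reached these ranks. Those next in level per kb were Vsig4 at rank 50, Cfp at rank 72 and C3 at rank 136.

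Normalised counts of C1qb were 18161, 28209 and 28335 in I/R libraries 1, 2 and 3, and 25160, 26220 and 29227 in the sham libraries. C1qa had 13517, 19190 and 18219 in I/R and 18559, 19374 and 19682 in sham libraries. C1qc had 15786, 24819 and 27944 in I/R and 19026, 25414 and 25919 in sham libraries. I/R library 1 was the lowest of all 6 for each chain, and the other I/R libraries lay within or beside the sham range. Log2 fold changes were -0.14 (95% interval -0.64 to 0.37, SE 0.23) for C1qb, -0.19 (95% interval -0.63 to 0.25, SE 0.20) for C1qa and -0.07 (95% interval -0.62 to 0.49, SE 0.25) for C1qc. Without I/R library 1 the fold changes were 0.08 for C1qb, -0.04 for C1qa and 0.18 for C1qc.

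A ratio of 2 chains within a library does not depend on how that library was scaled. C1qa over C1qb, as a ratio of normalised counts, was 0.744, 0.68 and 0.643 in I/R libraries 1, 2 and 3, and 0.738, 0.739 and 0.673 in the sham libraries (difference -0.027, exact two-sided permutation p = 0.7). C1qc over C1qb was 0.869, 0.88 and 0.986 in I/R and 0.756, 0.969 and 0.887 in sham libraries (difference 0.041, exact permutation p = 0.7). With 3 libraries against 3 the exact permutation test cannot go below p = 0.1. The 2 ratios share C1qb and were the only ones tested. Without sham library 1, which had the lowest C1qc share, the difference of the second ratio was -0.016.

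Bases upstream of the transcription start are shown for C1qb and C1qc because they are 2 of the most abundant members and the levels of both followed the same libraries, and for C3, C9 and Hc because C3 is the hub of the cascade and C9 and Hc had the smallest unadjusted p among members with positive fold changes. Of the 32 members 25 had an entry in the RefSeq promoter table of GRCm38.p6. C1qa, C2, C4b, Cfb, Cfi, Masp1 and Serping1 had none. Each stretch runs 5′ to 3′ on the gene's own strand, is part of the 250 bases before the RefSeq start and leaves out bases inside the GENCODE gene body. Capitals mark a match on either strand to GAGGAA, a core bound by the macrophage factor PU.1, to TTGCNNAA, a C/EBP core, or to GTTAAT followed by any base and ATTAA, a site of the hepatocyte factor HNF1.
C1qb, chr4:136886201-136886450, minus strand: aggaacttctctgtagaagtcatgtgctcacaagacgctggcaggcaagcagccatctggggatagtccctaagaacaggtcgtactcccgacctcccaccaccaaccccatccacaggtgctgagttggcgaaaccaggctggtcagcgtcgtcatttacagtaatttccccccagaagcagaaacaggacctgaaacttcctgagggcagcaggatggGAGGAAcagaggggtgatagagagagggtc
C1qc, chr4:136893066-136893164, minus strand: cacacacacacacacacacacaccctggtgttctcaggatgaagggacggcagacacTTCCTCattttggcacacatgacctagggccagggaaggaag
C3, chr17:57228137-57228386, minus strand: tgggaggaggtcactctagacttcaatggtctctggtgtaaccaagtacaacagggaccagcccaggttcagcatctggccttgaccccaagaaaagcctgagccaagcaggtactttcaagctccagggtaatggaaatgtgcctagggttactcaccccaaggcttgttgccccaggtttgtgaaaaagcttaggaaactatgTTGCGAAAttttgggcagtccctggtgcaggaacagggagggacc
C9, chr15:6445096-6445326, plus strand: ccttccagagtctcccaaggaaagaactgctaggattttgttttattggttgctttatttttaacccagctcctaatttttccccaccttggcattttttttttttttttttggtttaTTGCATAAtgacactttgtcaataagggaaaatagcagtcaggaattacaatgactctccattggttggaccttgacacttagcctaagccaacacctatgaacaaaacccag
Hc, chr2:35061439-35061662, minus strand: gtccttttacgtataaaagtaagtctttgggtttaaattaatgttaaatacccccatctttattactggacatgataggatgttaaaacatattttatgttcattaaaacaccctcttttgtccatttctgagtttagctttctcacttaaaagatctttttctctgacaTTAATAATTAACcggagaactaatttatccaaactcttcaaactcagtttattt

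Over all 32851 windows of 250 bases in the table, GAGGAA was found in 23.3%, TTGCNNAA in 9.56% and the HNF1 site in 0.0609%, that is, in 20 windows. Among the 28 windows of the complement members GAGGAA was found in 5, those of C1qb, C1qc, C5ar2, Cd59a and Vsig4. TTGCNNAA was found in 4, those of C1s1, C3, C5ar2 and C9, and the HNF1 site in 1, that of Hc. The match in Hc lies with its first base at -80 from the RefSeq start, and that in C3 at -45. The 3 sets of letters did not overlap in the windows printed. These are matches of letters and no measure of binding.

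C1r and C1s are the proteases carried by C1q. C1ra, at 458.0, 533.3 and 645.4 in I/R and 519.8, 617.9 and 566.4 in sham libraries, had a log2 fold change of -0.07 (SE 0.20). The groups overlapped fully. C1s1 had 225.2, 268.5 and 230.4 in I/R libraries, against 221.6, 98.4 and 234.2 in sham libraries, a log2 fold change of 0.48 (SE 0.34, with adjusted p = 0.985 by limma). Sham library 2 alone was low, and without it the fold change was 0.08.

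Mannose-binding lectins and their proteases were at low levels. Fcna, which encodes ficolin A and is not a member, was far higher. It had 6092, 8018 and 13597 in I/R libraries, against 11884, 9895 and 7293 in sham libraries. Mbl1, the most abundant of the 4 lectin pathway members by normalised count, had 94.3, 107.2 and 110.6 in I/R libraries, against 213.5, 88.5 and 185.2 in sham libraries. The I/R values were close together and lay between the low sham library 2 and the other sham libraries. Its log2 fold change was -0.55 (95% interval -1.37 to 0.28, SE 0.37). Mbl2, Masp1 and Masp2 had log2 fold changes of -0.32 (SE 0.41), 0.04 (SE 0.44) and -0.06 (SE 0.47). Sham library 2 held the lowest value of all 4 genes, and their sum was 474.7, 384.2 and 390.8 in I/R libraries 1, 2 and 3, against 663.2, 261.4 and 668.0 in the sham libraries.

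Some members with the same listed source were lowest in the same library, mainly in I/R library 1 and sham library 2. Over the whole table these 2 libraries also had the most genes above 0, at 17157 and 17012. The others had 13782 to 15161, although I/R library 1 had the fewest recovered counts. The part of this difference in the values below was not tested. Among the 19 complement genes listed as hepatocyte products, sham library 2 held the lowest value for 10, against 15.4% of all tested genes, and its hepatocyte marker sum of 56321 was the lowest of the 6. The sum of the 19 genes themselves went the other way. This sum was highest in sham library 2, at 45301, and lowest in I/R library 1, at 33849, where the hepatocyte marker sum was 86653. Sham library 2 also held the highest value for 3 of the 19, and I/R library 1 held the lowest for 5, against 17.1% of all tested genes. As values over the mean of the 6 libraries, Cfb, C2, C4b and C6 were at 1.44, 1.29, 1.25 and 1.115 in sham library 2. The hepatocyte marker sum there was at 0.733. In I/R library 1 the same genes were at 0.756, 0.637, 0.721 and 0.667. The hepatocyte marker sum there was at 1.128 and the Kupffer cell sum at 0.661. Among the 8 genes listed as macrophage products, I/R library 1 held the lowest value for 5, against 17.1% of all tested genes. Its Kupffer cell marker sum of 115676 was the lowest of the 6, where the next was 169852 in sham library 1. Sham library 1 held the highest value for 4 of the 8, against 20.3% of all tested genes. Sham library 2, with the highest Kupffer cell marker sum at 204899, held the highest value for 0 of the 8. The part of the cell mixture in these values was not tested.

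**Figure D3:**
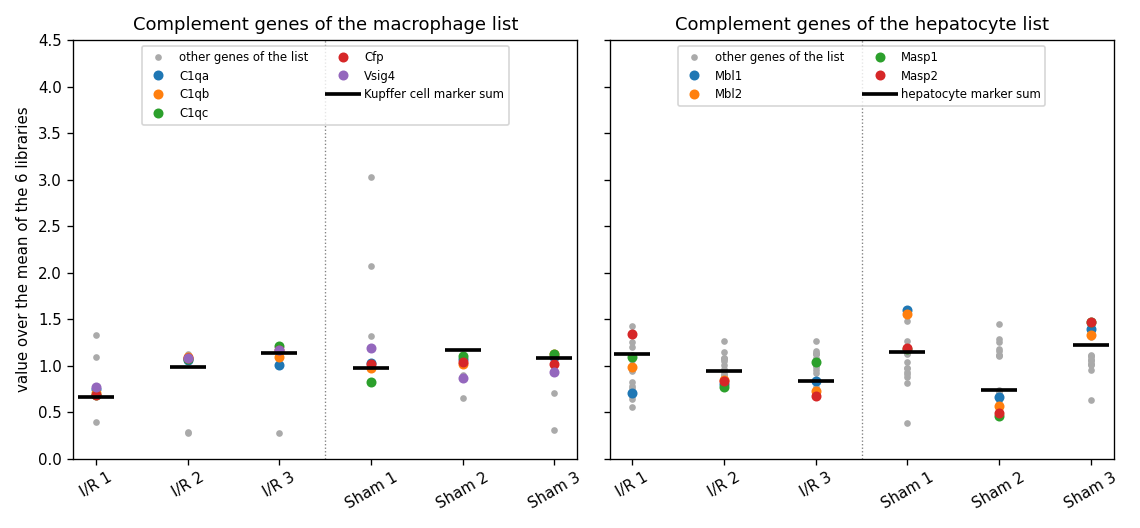
Value of complement genes in each library over that gene's mean of the 6 libraries, for genes listed as macrophage products (left) and hepatocyte products (right), with black dashes for the summed markers of Kupffer cells and hepatocytes on the same scale. C1qa, C1qb, C1qc, Cfp and Vsig4 are lowest in I/R library 1, where the Kupffer cell sum is at 0.661. The 4 lectin pathway members are lowest in sham library 2, where the hepatocyte sum is at 0.733.

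Among the other alternative pathway genes, Cfp, which encodes properdin, the stabiliser of the convertase, had normalised counts of 6825, 10758 and 11628 in I/R libraries, against 10116, 10397 and 10161 in sham libraries. The sham libraries were nearly identical, and the I/R libraries fell on both sides of them. Cfp had a log2 fold change of -0.11 (95% interval -0.59 to 0.38, SE 0.22), which was 0.13 without I/R library 1. Cfd, the gene for the protease that activates factor B and a product mainly of fat cells, had a count of 0 in all libraries, where a floor of 3 counts corresponds to normalised counts of 1.83 to 4.89 per library.

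C3, the component on which all pathways converge, was at 15293, 16762 and 14653 in I/R libraries, against 13955, 17587 and 17791 in sham libraries. The groups overlapped, with a log2 fold change of -0.07 (95% interval -0.49 to 0.34, SE 0.19, adjusted p = 0.995 by limma). With quantile normalisation the value was 0.06. C3 lies on chromosome 17 as well (minus strand, 57203970 to 57228136), outside the interval that holds C4b, Cfb and C2.

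Genes of the membrane attack complex had fold changes of both signs. Hc, which encodes C5, the precursor of the chemoattractant C5a, had normalised counts of 839.9, 677.0 and 644.6 in I/R libraries, against 510.0, 459.6 and 628.6 in sham libraries. Among the tested members it alone had every I/R value above the highest sham value, by a margin of less than the spread within either group. The log2 fold change was 0.44 (95% interval -0.01 to 0.89, SE 0.20, adjusted p = 0.985 by limma).

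C9, whose product polymerises into the pore, had 354.5, 306.2 and 358.9 in I/R libraries, against 324.3, 176.3 and 178.1 in sham libraries. Sham library 1 lay within the I/R range and the other sham libraries well below it. The log2 fold change of C9 was 0.64 (95% interval 0.02 to 1.26, SE 0.28, adjusted p = 0.985 by limma), and it was positive in all alternatives, from 0.49 to 0.93. C8a, encoding the alpha chain of C8, had 348.4, 333.6 and 329.3 in I/R libraries, against 112.4, 343.9 and 276.0 in sham libraries, and sham library 1 was the farthest from the rest. Its log2 fold change was 0.61 (SE 0.37), or 0.13 without sham library 1. C8b and C8g, encoding the other chains of the same protein, had -0.22 (SE 0.33) and -0.25 (SE 0.42).

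C6, the protein that binds C5b first in building the attack complex, was the most abundant terminal gene, with 3165, 3928 and 5338 in I/R libraries, against 5513, 5289 and 5227 in sham libraries. I/R libraries 1 and 2 were below all sham libraries and I/R library 3 was among them. The log2 fold change of C6 was -0.40 (95% interval -0.85 to 0.05, SE 0.20), and it was negative in all alternatives, from -0.60 to -0.20. Per kb the mean of C6 was 1334, against 110.7 for C9.

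**Figure D4:**
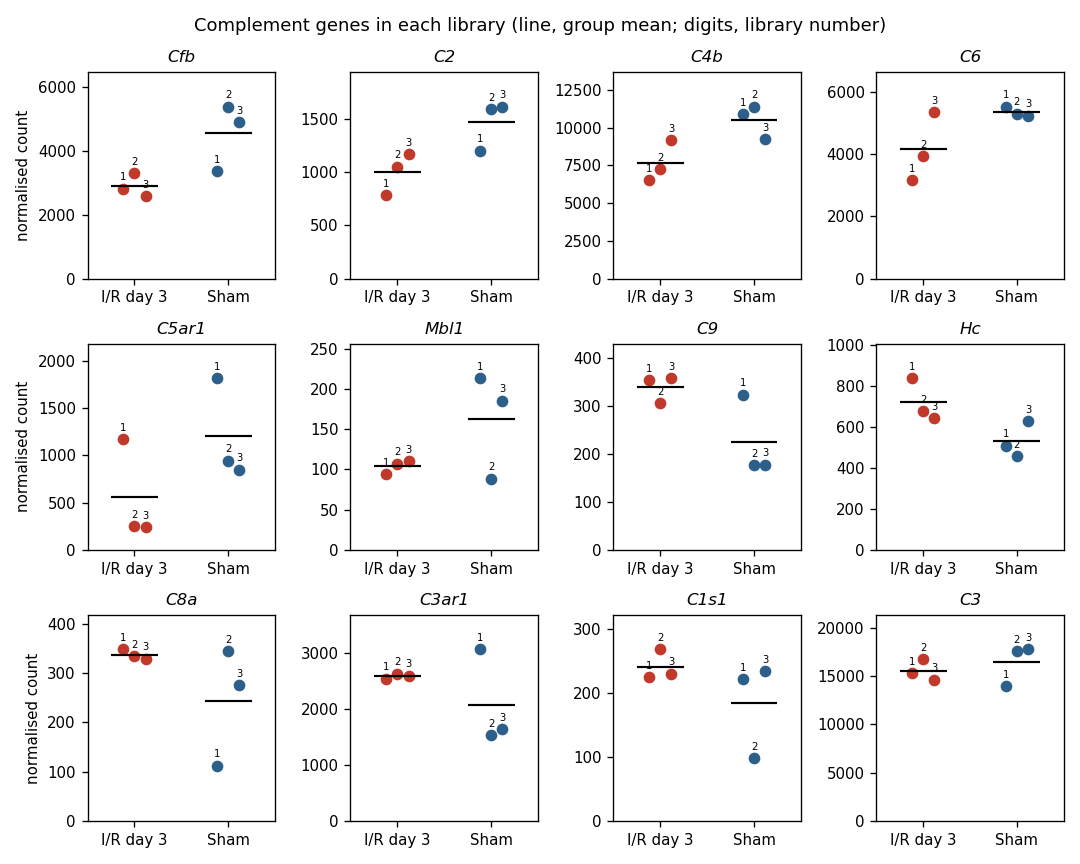
Normalised counts of 12 complement genes in each library, with I/R day 3 on the left and sham on the right of each panel, digits for the library number and lines for the group means. The groups do not overlap for Cfb, C2 and C4b, lower in I/R, nor for Hc, higher in I/R, and they overlap in the other panels.

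Inhibitors in plasma had small differences. Serping1, which encodes C1 inhibitor, the serpin that blocks C1r, C1s and the MASPs, had 1158, 1099.5 and 1202 in I/R libraries, against 1190, 1418 and 1298 in sham libraries. The groups overlapped at I/R library 3 and sham library 1. Its log2 fold change was -0.17 (95% interval -0.54 to 0.19, SE 0.16). Cfi, encoding the protease that cleaves C3b and C4b, had 0.11 (SE 0.27), and C4bp, encoding its cofactor for C4b, had 0.08 (SE 0.40), with overlapping groups for both. Both signs turned without I/R library 1 and without sham library 2, and that of C4bp turned under other alternatives too.

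Regulators on the cell surface were also spread around 0. Cd55, encoding decay-accelerating factor, which dissociates the convertases, had 809.4, 736.7 and 758.3 in I/R libraries, against 808.3, 783.6 and 1006 in sham libraries, a log2 fold change of -0.16 (SE 0.18). Sham library 3 stood above the rest. Cr1l, encoding the rodent regulator Crry, had 517.3, 443.8 and 608.0 in I/R libraries, against 576.9, 448.3 and 350.1 in sham libraries, a log2 fold change of 0.21 (SE 0.24). Cd59a, encoding the inhibitor of the attack complex, had -0.53 (SE 0.40), and Cd46, which in mice is expressed mainly in testis, had 24.3, 3.65 and 5.45 in I/R and 0, 10.6 and 17.9 in sham libraries. Cd46 at these levels gave a log2 fold change of 0.60 with an SE of 1.58, too wide to give a direction.

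Receptors for complement fragments included the most negative fold change among the tested members. C5ar1, the receptor for C5a on neutrophils, monocytes and macrophages, had normalised counts of 1175, 250.2 and 244.5 in I/R libraries, against 1820, 946.5 and 848.4 in sham libraries. I/R libraries 2 and 3 were far below all sham libraries, and I/R library 1 lay above sham libraries 2 and 3, so the groups overlapped. Libraries 1 of both groups, the shallowest, were the highest of their groups. The log2 fold change of C5ar1 was -1.45 (95% interval -2.63 to -0.26, SE 0.54, adjusted p = 0.985 by limma). It was -2.19 without I/R library 1 and -1.11 without sham library 1, and over the 6 fits that left out 1 library it lay between -2.19 and -1.06, the value without I/R library 3. Without both, an alternative added after the data were seen, its adjusted p was 0.0985, the lowest for this gene in any run, and DESeq2 gave an unadjusted p of 0.162 with all 6 libraries.

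C5ar2, the second C5a receptor, was close to the detection limit at 6.09, 4.26 and 17.1 in I/R and 47.3, 13.97 and 4.78 in sham libraries, a log2 fold change of -0.88 (SE 1.15). C5ar1 and C5ar2 lie next to each other on chromosome 7. C3ar1, the receptor for C3a, had 2541, 2630 and 2596 in I/R libraries, against 3068, 1529 and 1636 in sham libraries. The I/R libraries were nearly equal, and the sham libraries fell on both sides of them. Its log2 fold change was 0.39 (95% interval -0.16 to 0.94, SE 0.25), and 0.71 without sham library 1. Vsig4, the receptor of Kupffer cells that clears targets coated with C3 fragments, had 8580, 12048 and 13060 in I/R libraries, against 13282, 9626 and 10436 in sham libraries, a log2 fold change of 0.01 (95% interval -0.47 to 0.49, SE 0.22).

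Beyond the members, a list of 32 other genes of the pathway was examined, of which 31 were in the table and 26 were tested. None passed the limma threshold, 17 had positive and 9 negative fold changes, and the median was 0.16. At an unadjusted p under 0.05 by limma there were 2 higher, against 2.96% of all tested genes, and 0 lower, against 1.48%. Cd93, which encodes a membrane protein once described as a C1q receptor, had 1696, 1838 and 1608 in I/R libraries, against 808.3, 421.7 and 505.5 in sham libraries. All I/R libraries were above all sham libraries, with a log2 fold change of 1.62 (SE 0.24, with adjusted p = 0.1 by limma). On the recovered reads, the adjusted p of Cd93 was 0.176 by edgeR and 4.68e-06 by DESeq2, and Cd93 was the only gene of this list called by any of the 3 tools in these fits. Pros1, encoding protein S, which circulates bound to C4b-binding protein in human plasma, had 0.69 (SE 0.20, adjusted p = 0.933), and Colec12, a scavenger collectin gene, 0.66 (SE 0.31, adjusted p = 0.985). On the lower side stood Colec11 and Colec10, encoding soluble collectins of the lectin pathway, at -1.11 (SE 0.51) and -0.90 (SE 0.43), and Calr, encoding the C1q-binding chaperone calreticulin, at -0.26 (SE 0.18), each with an adjusted p of 0.985. Cr2 and Fcnb, encoding complement receptor 2 and ficolin B, were at 0 in all libraries. Of the 6 recruited monocyte markers 4 had positive and 2 negative fold changes, with a median of 0.48, and 0 passed by limma. They summed to 1558 to 1978 in I/R and 1005 to 2008 in sham libraries, with none at 0 in all libraries. Ccr2, with 307.3, 429.2 and 237.5 in I/R and 44, 69.8 and 83.6 in sham libraries, and Chil3, averaging 164.8 in I/R and 15.7 in sham libraries, were higher in every I/R library. Ly6c2, S100a8, S100a9 and Plac8 did not share this, with means of 17.2, 18.2, 50.4 and 1175 in I/R and 17.5, 21.1, 50.4 and 1339 in sham libraries. By DESeq2 on the recovered counts, the adjusted p was 4.87e-06 for Ccr2, 0.00206 for Chil3 and 0.9999 for each of the others. By edgeR it was 0.141 for Ccr2 and 0.636 for Chil3. The 6 pan-endothelial markers summed to 15734 to 23647 in I/R and 14431 to 21375 in sham libraries, and 5 had a positive fold change. The part of monocytes and endothelial cells in the values of Cd93 was not tested.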

How the data were processed

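RNA was sequenced from 3 I/R day 3 and 3 sham libraries, made after ribosomal RNA depletion per the labels' protocols. The authors deposited 1 table of normalised counts, a signal scaled by 1 factor per library. Trim Galore 0.5.0, HISAT2 2.1.0, StringTie 1.3.3b, DESeq2 1.22.1 and mm10 are named in the submitters' processing notes without their roles. How genes were counted, on which annotation and with what strand setting is not given in the sources used here. Within a tolerance of 0.01, 100% of values were whole multiples of the lowest nonzero value in their column. These multiples, called recovered counts, may derive from coverage, and floors of 3 counts cover counting error only.

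Genes with a mean of at least 10 (13434) were tested in R 4.3.3 with limma 3.58.1 and an intensity trend on log2(value + 1), two-sided, with Benjamini-Hochberg adjustment over all tested genes and a threshold of 0.05. Fold changes are on that scale and, for genes with low or very uneven values, can be smaller or larger than those of a count model. The procedure was tested on simulated data. edgeR 4.0.16 and DESeq2 1.42.0 on recovered counts were alternatives. The others were other pseudocounts, filters, scalings, no trend, left-out libraries and a block. Gene positions and exon lengths came from GENCODE mouse release 21, matched by identifier for 21886 of 22027 genes. The members and lists were chosen with earlier results of these data known. Values per library are given for the members with the smallest p in each direction, those without overlap between the groups, the most abundant of each role and the C1q chains. Other pathway genes are the 3 of smallest p per direction with a mean of at least 50, and Fcna was added for its level. The markers named were a fixed set.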

Additional observations from a re-analysis of the deposited data

How the results depend on the processing

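No complement member passed an adjusted p of 0.05 in any of the 17 alternatives, and 17 of the 31 tested members kept the sign of their fold change in all of them, 11 negative and 6 positive. Depth and the spread of 3 libraries per group limit what could be seen for low genes such as Cd46 and C5ar2. The median log2 fold change of the members ran from -0.20 to -0.01 over all alternatives, and from -0.20 to -0.05 with 1 library left out.

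Over all genes, 4 were called higher and 0 lower. The number higher was 1 with edgeR or a mean of at least 50, 39 with DESeq2, 0 without the trend, 0 without both shallowest libraries and 0 with the replicate block, and it ran from 0 to 20 with 1 library left out. The number lower was 8 with DESeq2 and ran from 0 to 2 with 1 library left out. Members lower at an unadjusted p under 0.05 numbered 4, or 1 without the trend and 2 to 4 with 1 library left out. Members higher numbered 1, or 0 with edgeR, DESeq2, no trend or quantile normalisation, 2 with no filter, equal totals or without both shallowest libraries, and 0 to 2 with 1 library left out. The cause was not tested.

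Several signs turned, including those of C5ar2 and Cd46, whose fold changes were not small. With quantile normalisation C3 had 0.063, C1qc 0.031, Masp1 -0.043 and Cd46 -0.36. In edgeR and DESeq2 C4bp had -0.0048 and -0.0051, and Masp1 -0.094 and -0.097. Without both shallowest libraries the values were 0.070 for C5ar2, 0.015 for C8b, 0.33 for C8g, 0.030 for C1qb, 0.12 for Cfp, 0.037 for C1qc, -0.050 for C4bp and -1.44 for Cd46. With 1 library left out the ranges were -1.615 to -0.084 for C5ar2, -0.556 to -0.014 for C8b, -0.53 to 0.076 for C8g, -0.24 to 0.076 for C1qb, -0.25 to 0.13 for Cfp, -0.093 to 0.31 for Cfi, -0.70 to 1.42 for Cd46, -0.20 to 0.050 for C1ra, -0.23 to 0.18 for C1qc, -0.40 to 0.39 for C4bp, -0.53 to 0.25 for Masp2, -0.46 to 0.37 for Masp1 and -0.11 to 0.19 for Vsig4, which had 0.32 without both shallowest libraries. That of the difference in C1qc over C1qb was -0.016 to 0.090.

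Replicate numbers were shared between the groups. Deviations from the group means correlated at -0.02, -0.21 and -0.0014 for libraries with the same number. For libraries with different numbers the correlations ran from -0.13 to 0.18. With 3 libraries per group, centred on their mean, such correlations cannot decide whether libraries were paired. The numbers were not taken as pairs in the main fit. With the replicate block 0 members were called, and C5ar1 had an adjusted p of 0.338 by limma.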
